A study of Mus musculus with 56 samples.

Results

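Lung gene expression 18 and 24 hours after oleic acid (OA) was compared with expression at 1 and 1.5 hours in the same mouse model of acute lung injury. The clones compared were those with a gene name that shone above the empty spots of the membrane in at least 8 of 16 mice, which 2555 of 7625 named clones did, for 2124 of 5883 gene symbols. The 16 mice were female C57Bl/6J, 7 weeks old, anesthetized with xylazine and ketamine, and each received 20 µl of OA (1.2 µl per g of body weight) through the tail vein. They were wild-type mice. The early group held 4 mice at 1 hour and 6 at 1.5 hours, on 8 and 10 microarrays, and the late group 3 mice at 18 hours and 3 at 24 hours, on 5 and 6 microarrays. One further microarray at 1.5 hours, whose mouse name belongs to another time point, was not counted. Mice given physiological serum in place of OA, 3 early and 3 late, served as the background for the same time points. Microarrays are nylon membranes carrying spotted mouse cDNA, hybridized with 33P-labelled cDNA made from the smallest lung of a mouse, and the value of a clone is its normalized log2 signal.

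OA given into a vein reaches the lung first, where it injures the capillary endothelium and the alveolar epithelium, so that plasma leaks into the air spaces and neutrophils and monocytes follow. In the first hours a cell answers such damage with immediate early genes and with NF-kB targets, which switch on without new protein being made and switch off again. Later stages of lung injury are known for acute phase proteins, antioxidant enzymes and protein folding factors. In whole lung RNA, fewer cells of a type and less RNA per cell cannot be told apart.

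The stage of a mouse could not be separated from a number in its name. Each mouse carries an L number, whose meaning is not given in the sources used here. All 6 late mice carried L number 1, whereas 6 early mice carried L number 2 and 4 carried L number 3. Every late minus early difference below is therefore also a difference between L numbers, and within these 16 mice the effects cannot be told apart. Mice at 3 and 4 hours carried all 3 L numbers and were used for a fit that holds the L number as a term, given after the genes.

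The share of named clones above the empty spots was 17.5% to 41.5% in early mice (median 35.6%) and 20.6% to 49.8% in late mice (median 30.7%). Microarrays of the same mouse correlated at 0.904 to 0.963 over named clones (median 0.942, 13 pairs), and microarrays of different mice of a stage at a median of 0.934 (195 pairs). The lung label held for epithelial markers. Surfactant protein Sftpd lay between 13.2 and 13.8 in every mouse, above 99.1% of named clones, and the pneumocyte phosphate transporter Slc34a2 between 12.2 and 13.0. Napsa, which the paper counts among surfactant genes, was bright in all 16 mice but lower, between 9.02 and 10.6. In its lowest mouse it stood above 64.3% of named clones. Of the clones of the endothelial marker Pecam1, one was bright in 15 mice and the other in 0.

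Between late and early lungs, 30 clones rose and 20 fell at an adjusted p under 5% (limma, Benjamini-Hochberg over the 2555 clones). These 50 clones, of 48 genes, were 1.96% of those tested, with 1.17% higher and 0.783% lower late. All adjusted p-values of called clones lay close to the threshold, between 0.0398 and 0.0481 (645 clones were under 0.05 before adjustment). The count was not stable. No clone was called in either direction when mouse P2L2, P6L2, P11L1, P6L1, P7L1 or P8L1 was left out, while 155 rose and 135 fell without P4L3, 134 and 90 without P4L2, and 80 and 75 without P2L3. Without P3L2, 1 rose and 0 fell, without P12L1 the counts were 2 and 0, without P10L1 9 and 0, without P8L2 10 and 1, without P1L3 17 and 8, without P5L3 23 and 8 and without P7L2 25 and 12. The 29 genes named below by rule, chosen by size and by gene list, kept their direction in all 16 of these fits. They had been called in the fit of the same mice, so their kept direction is description and no test. In 9 clones (0.352%) all 6 late mice lay above all 10 early mice, and in 4 clones (0.157%) all lay below. Without the filter on dim clones, 56 of 7625 named clones (0.734%) were called, and 32 of these were dim ones.

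The largest rise was that of Tcea1, the transcription elongation factor TFIIS. Its level was 8.00 to 10.2 in the 10 early mice (median 8.72), 9.35, 9.58 and 10.7 in the 3 mice at 18 hours, and 11.7, 11.9 and 11.8 at 24 hours. The difference was 1.88 ± 0.43 (SE; adjusted p = 0.045). The Tcea1 clone was above the empty spots in 4 early and 5 late mice. Most of its early levels are therefore those of the background, which leaves the size of the rise uncertain. All mice at 24 hours stood above every early mouse, whereas 2 of the 3 at 18 hours lay within the early range. Cyb5r3, the NADH-cytochrome b5 reductase, ran the same way, at 9.51 to 11.1 early (median 9.99), 10.7, 11.0 and 11.6 at 18 hours and 12.3, 12.8 and 12.8 at 24 hours, a difference of 1.70 ± 0.33 (adjusted p = 0.0398). One clone of Ndufb7, a subunit of respiratory complex I, rose by 1.42 ± 0.31 (adjusted p = 0.0398), with 12.8 in each mouse at 24 hours against at most 11.5 early. Its other clone was 9.70 early and 9.76 late (difference 0.06, adjusted p = 0.751), so that these probes of a single gene disagree. Gnmt, the glycine methyltransferase abundant in liver, was 9.37 ± 0.27 early (SD, n = 10) and 10.3 ± 0.65 late (SD, n = 6), with 10.9, 11.1 and 10.7 at 24 hours, and its difference was 0.95 ± 0.21 (adjusted p = 0.0425). In these 4 clones the 18-hour mice stood low and the 24-hour mice high among the late lungs.

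On average, transcripts known from liver were also highest at 24 hours. A list of liver-enriched genes, written after these values had been seen, has 37 named clones of 32 genes on the membrane, 28 of them too dim for the 2555. The 9 bright clones had a median difference of 0.83, with 0.37 at 18 hours and 1.06 at 24 hours, and of 0.15 with the L number in the fit. Of these, 7 had a positive difference and 2 a negative one, a clone of Apob (-0.17) and Tdo2 (-0.05). In 17 of the 37 clones all 3 mice at 24 hours stood above all 10 early mice, which 2.73% of all named clones did. In 2 of the 37 clones all 3 mice at 18 hours did. The list was written with these values known, so its share beside that of all clones is description and no test. Normalized together with the serum microarrays, the mean level of the list was 7.98 to 8.50 in early mice, 8.38 to 8.66 at 18 hours and 9.03 to 9.17 at 24 hours. The serum mouse at 24 hours stood at 8.98, next to the OA mice of that hour, and the other serum mice lay between 7.40 and 8.04. Hpxn, the heme-binding plasma protein hemopexin, was 7.46 to 8.55 early, 9.41, 9.44 and 9.21 at 18 hours, and 10.4, 10.6 and 10.4 at 24 hours, against 7.49 and 7.97 in the serum mice at 18 hours and 11.0 at 24 hours. Hemopexin was above the empty spots in 5 late and 0 early mice, and fibrinogen Fga and the vitamin D binding protein Gc in 3 late and 0 early mice, so that their early levels are those of the background and no size of change is given. Albumin, Alb1, was 9.31 to 12.5 early and 11.0 to 13.6 late, a difference of 1.60 ± 0.47 that missed the threshold (adjusted p = 0.0644). Tcea1 stood at 11.9 in the serum mouse at 24 hours and at 7.45 and 8.02 in those at 18 hours, and Ndufb7 at 13.2 against 9.22 and 9.63. The part of these transcripts in the rise of Tcea1, Cyb5r3, Ndufb7 and Gnmt was not tested. With the 18-hour mice alone as the late group, 1 clone rose and 3 fell, and with the 24-hour mice alone 19 rose and 1 fell.

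**Figure D1:**
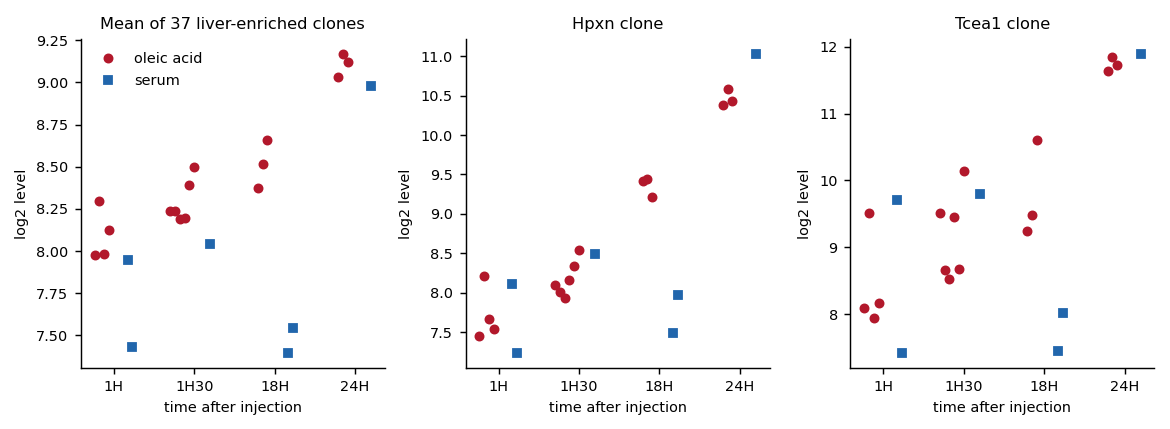
Mean log2 level of 37 liver-enriched clones, and levels of the Hpxn and Tcea1 clones, in each OA mouse (circles) and serum mouse (squares) by time after injection. The 3 OA mice at 24 hours lie between 9.03 and 9.17 on the list's mean, and the serum mouse of that hour at 8.98.

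A second set of risen clones was already high at 18 hours. Rpo1-2, now Polr1b, the second-largest subunit of RNA polymerase I, was 9.86 to 12.9 early (median 11.5) and 12.7 to 13.3 late (median 13.1), 1.49 ± 0.35 higher (adjusted p = 0.045). Adarb1, an adenosine deaminase that edits RNA, was 9.60 to 11.9 early (median 10.8) and 11.7 to 12.3 late (median 12.0), a difference of 1.12 ± 0.28 (adjusted p = 0.0481). In these clones the late mice were nearly uniform and the early mice spread widely, with the SD at 0.89 early and 0.26 late for Rpo1-2 and at 0.72 and 0.22 for Adarb1. The clone named Q8R0V9MOUSE after a protein database entry rose by 1.08 ± 0.25, Hps4 by 0.94 ± 0.21, Bloc1s3 by 0.89 ± 0.22 and Cacna1d by 0.85 ± 0.21, with adjusted p-values of 0.0435 to 0.045. With the serum column of the same time point subtracted, Hps4 was called in the opposite direction (-1.08, adjusted p = 0.000737) and Cacna1d stood at 0.06 (adjusted p = 0.924). Hps4 and Bloc1s3 belong to complexes that build lysosome-related organelles, to which the lamellar bodies of pneumocytes count, and Cacna1d is the pore of a voltage-gated calcium channel. For Bloc1s3 all late mice (9.87 to 10.4) stood above all early ones (8.19 to 9.83).

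Bloc1s3 stood at 9.79, 9.83 and 9.59 in the early mice P4L2, P4L3 and P2L3, whose membranes had 17.5%, 22.7% and 29.8% of clones above the empty spots, at 9.68 in P5L3 (36.9%) and between 8.19 and 9.49 in the other early mice. P4L2, P4L3 and P2L3 were also the highest early mice for Adarb1, at 11.8, 11.9 and 11.4, and for Cacna1d, at 10.8, 10.4 and 10.5. Rpo1-2 and Hps4 were highest in P4L2 and P2L3, at 12.9 and 12.3 and at 11.3 and 11.0. The order was not the same throughout: Hps4 was 10.2 in P4L3, below the early median of 10.3. Q8R0V9MOUSE was highest in P5L3, at 11.92, beside 11.89 in P4L2 and 11.86 in P4L3. The lowest Bloc1s3 level was that of P6L2, whose membranes had 28.8% of clones above the empty spots. The part of membrane brightness in these levels was not tested. The mice at 18 hours had 24.9%, 28.3% and 20.6% of clones above the empty spots and those at 24 hours 35.1%, 49.8% and 33.1%. With the 95th percentile of the empty spots as a covariate, a setting chosen after the values were seen, 85 clones rose and 62 fell, and all 50 called clones were among them. Serum microarrays also stood apart at these clones: Rpo1-2 lay between 8.65 and 9.07 in the 6 serum mice, and between 9.77 and 13.2 in OA mice on the same scale. Q8R0V9MOUSE was at most 9.17, Hps4 at most 8.71, Bloc1s3 at most 7.65 and Cacna1d at most 7.54 in serum mice, below the lowest OA mouse in each case. Adarb1 was 2.34 higher in early OA than in early serum mice, and 3.64 higher in late ones. OA and serum mice differed by more than 1 on the log2 scale in 9.9% of the 2555 clones, with 213 higher and 40 lower in OA mice. Of the 50 called clones 12 differed so, with the OA mice the higher. Clones had been kept for their brightness in OA mice alone, which favours clones higher in OA than in serum mice. The part of treatment, membrane and filter in the difference between OA and serum mice was not tested.

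**Figure D2:**
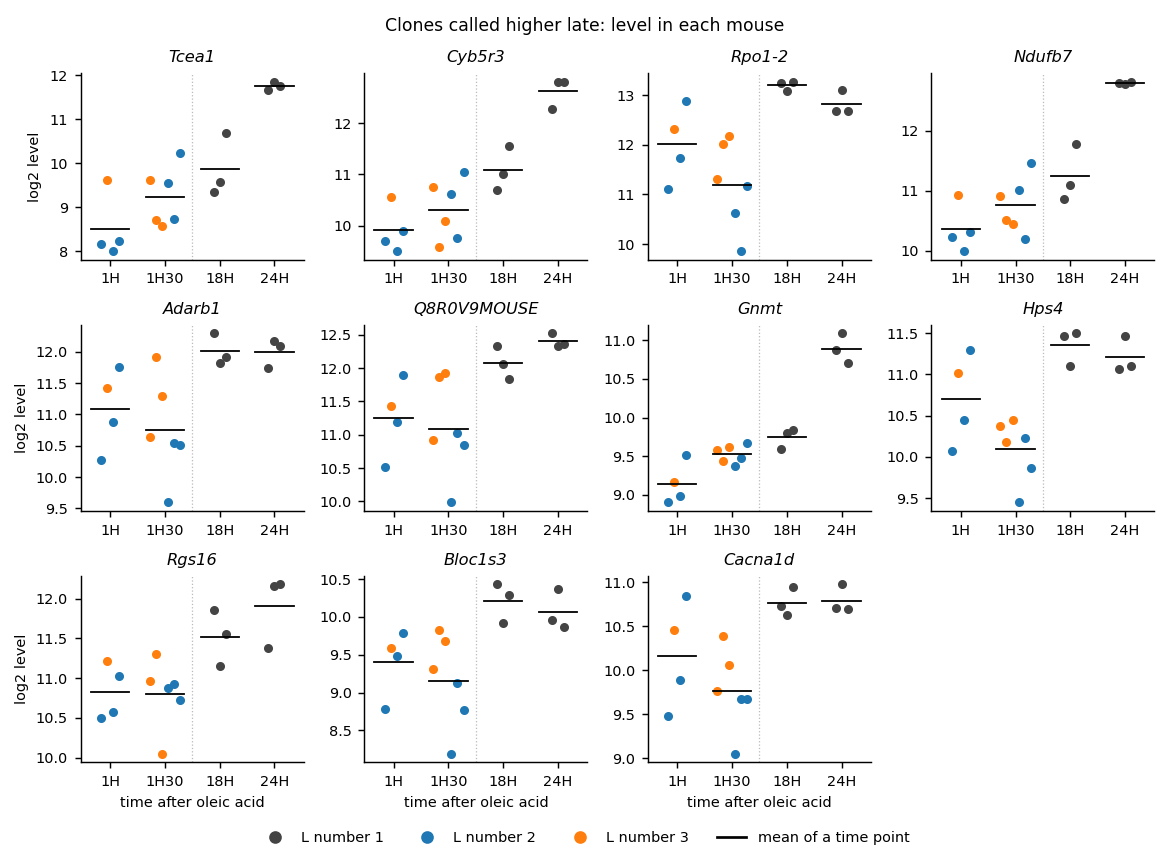
Log2 level of 11 clones with a large rise in each OA mouse by time point, with the mean of a time point as a bar and the L number as the colour. Tcea1, Cyb5r3, Ndufb7 and Gnmt are highest at 24 hours, and Rpo1-2, Adarb1, Hps4, Bloc1s3 and Cacna1d are as high at 18 hours, where Rpo1-2 stands at 13.1 to 13.3.

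P4hb and Cct7, which act in protein folding, rose in 2 clones each. P4hb, the protein disulfide isomerase of the endoplasmic reticulum, was 10.1 to 10.7 early (median 10.3) and 10.6 to 11.5 late (median 11.1) in its first clone, 0.72 ± 0.12 higher (adjusted p = 0.0398). The other P4hb clone rose by 0.70 ± 0.15 (adjusted p = 0.0398). Cct7, a subunit of the cytosolic chaperonin that folds actin and tubulin, rose in 2 clones, by 0.49 ± 0.12 and 0.45 ± 0.09, and another clone differed by 0.43 (adjusted p = 0.0588). Across the chaperone and endoplasmic reticulum list, 4 of 60 bright clones rose and 0 fell, where 1.17% of all bright clones rose. These 4 were the clones of P4hb and Cct7, and the 60 clones stand for 36 genes. Of the 60, 42 had a positive difference, with a median of 0.18 against 0.01 over all bright clones, and of 0.02 with the L number in the fit. The chaperone BiP, Hspa5, was not called: its brightest clone was 11.9 to 13.0 early and 12.6 to 13.4 late, a difference of 0.44 ± 0.15 (adjusted p = 0.0901), and its other clones gave values between -0.17 and 0.28. Of 5 Hsp90ab1 clones 2 differed by 0.38 (adjusted p = 0.0889 and 0.0966), and the rest by 0.14 to 0.18. Outside this list, but in the same compartment, Prkcsh, the beta subunit of glucosidase II, rose by 0.44 ± 0.11 with no overlap between the groups. Ssr2, a subunit of the translocon-associated complex, rose by 0.40 ± 0.10 (adjusted p = 0.045 for both). Srp54, a subunit of the signal recognition particle and also outside the list, fell by 0.39 (SE 0.08, adjusted p = 0.0398). These genes were picked out after their values were seen. With the L number in the fit the P4hb difference was -0.13 ± 0.25, of the opposite sign. In serum mice P4hb lay between 10.9 and 11.5, and early OA mice were 0.87 below early serum mice.

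Rgs16, which shortens G protein signaling and is induced by inflammation, was 10.1 to 11.3 early (median 10.9) and 11.2 to 12.2 late (median 11.7), and rose by 0.90 ± 0.19 (adjusted p = 0.0398). Cd6, a T cell surface receptor, rose by 0.43 ± 0.09 (adjusted p = 0.0398), from 9.62 to 10.1 early to 10.0 to 10.3 late. Another Cd6 clone, above the empty spots in 0 mice, differed by -0.05. The called clones of Rgs16 and Cd6 are neighbours on the membrane. So are those of Cyb5r3 and Ddx24, Ndufb7 and Prkcsh, Mll5 and Lamb1-1, and Rps3a and Cul1, and the clones of each pair moved the same way. The part of position in these differences was not tested. Of the 50 called clones 10 had another called clone within 1 spot, as had 5.47% of the other bright clones. Complement C3, an acute phase protein made in liver and in lung epithelium, rose by 0.46 ± 0.11 (adjusted p = 0.045), from 9.79 ± 0.20 (SD, n = 10) to 10.2 ± 0.21 (SD, n = 6).

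Among falling clones the largest difference was in Sparcl1, a matrix glycoprotein also called hevin. Its level was 10.5 to 11.7 early (median 11.3) and 10.0 to 10.8 late (median 10.3), and it fell by 0.78 (SE 0.18, adjusted p = 0.045). Another Sparcl1 clone, above the empty spots in 0 mice, differed by 0.05. Marcks, a substrate of protein kinase C at the plasma membrane, went from 9.04 to 10.1 early to 8.56 to 9.24 late and fell by 0.68 (SE 0.17), and its other bright clones differed by -0.24 and -0.58 without being called. Both genes overlapped between the groups. P4L2, P4L3 and P2L3 were the lowest early mice for Sparcl1 at 10.8, 10.5 and 10.6, and for Marcks at 9.375, 9.04 and 9.055. The called Marcks clone was above the empty spots in 7 early and 2 late mice, so that the size of its fall is uncertain. Lamb1-1, the laminin beta chain of basement membranes, fell by 0.59 (SE 0.14), from 9.52 to 10.5 early to 9.17 to 9.64 late.

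Cdc42, a small GTPase of the cytoskeleton, fell by 0.58 (SE 0.14) in one clone, while its other clones differed by -0.02 and -0.41 and were not called. Adam10, a sheddase of membrane proteins, fell by 0.57 (SE 0.14), and Akap12, an anchor of protein kinase A, by 0.46 (SE 0.10). Cul1, a scaffold of ubiquitin ligases, fell by 0.45 (SE 0.10), while its other clone, above the empty spots in 2 mice, differed by -0.05. Mll5, now Kmt2e, a chromatin regulator, fell by 0.62 (SE 0.15), and St7l by 0.58 (SE 0.12). The inhibitor of apoptosis Birc3, an NF-kB target, fell by 0.29 (SE 0.07), and every late mouse (highest 9.255) lay below every early mouse (lowest 9.26). The respiratory and ribosomal genes Atp5o and Rps3a fell by 0.32 (SE 0.08) and 0.33 (SE 0.08), and another Rps3a clone differed by -0.83 (SE 0.60, adjusted p = 0.416). With the serum column subtracted, Birc3 was called in the opposite direction (0.28, adjusted p = 0.0443), and Mll5 and Akap12 stood at 0.52 and 0.038, not called. Adjusted p-values of these falls were between 0.0398 and 0.045. Among late mice, Adam10 and Mll5 were above the empty spots in 2, Birc3 in 3, and Cdc42 and St7l in 4. Late levels of these clones lie at or near the background, so that the sizes of their falls are uncertain. In serum mice Sparcl1 lay between 7.95 and 8.43, Marcks between 7.22 and 8.24, Cdc42 between 8.00 and 8.59 and Adam10 between 7.56 and 8.08, each below all OA mice on the same scale.

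Fcer1g, the shared gamma chain of Fc receptors on myeloid cells, fell by 0.58 (SE 0.14, adjusted p = 0.0452), from 10.3 to 11.5 early (median 10.7) to 9.90 to 10.3 late (median 10.1). Its second clone, bright in 8 mice, differed by -0.33 (adjusted p = 0.106). Slc34a2 was 12.6 to 13.0 early and 12.2 to 12.8 late and fell by 0.44 (SE 0.11, adjusted p = 0.045), with the 2 late mice P6L1 and P8L1 at 12.8 and 12.7, inside the early range. Serum mice held Slc34a2 between 11.5 and 12.1.

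**Figure D3:**
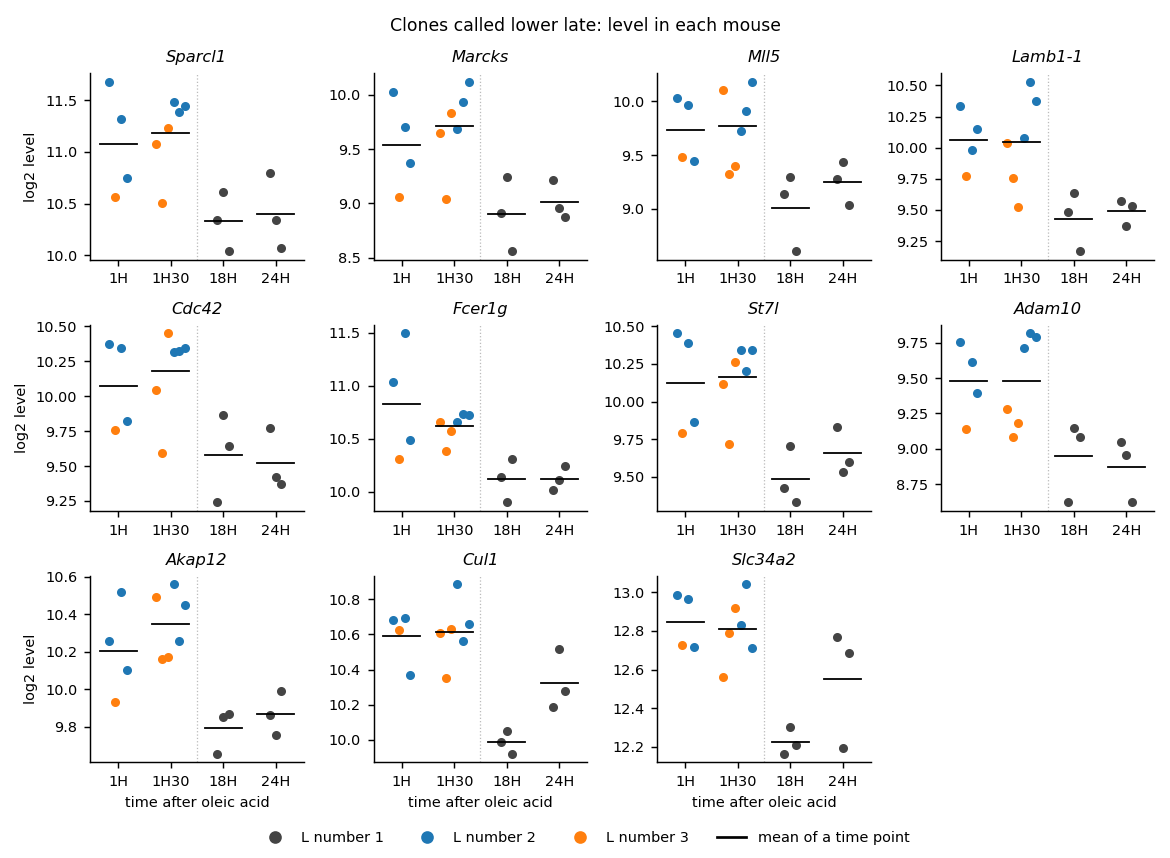
Log2 level of 11 clones with a large fall in each OA mouse by time point, with the mean of a time point as a bar and the L number as the colour. The early and late levels touch or overlap in each of them, as in Sparcl1, where late mice reach 10.8 and the lowest early mouse is at 10.5.

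Promoters of the called genes were searched for short motifs of stress and cytokine signaling, in the 300 bases from 250 before to 50 after the RefSeq start site (GRCm38.p6), on both strands, at the first start site listed for a gene. Of 48 called symbols, 47 matched a current gene name and 30 had a promoter in the table. The AP-1 motif TGANTCA was in 0 of 18 promoters of risen and 0 of 12 of fallen genes, and in 7.93% of all 27025 promoters. The E-box CACGTG was in 2 of 18 and 2 of 12 (7.24% of all), and the STAT motif TTCNNNGAA (8.47% of all), the CRE TGACGTCA (1.88%) and, within the fallen genes, the heat shock motif GAANNTTC (7.95%) were each in 1 promoter a set, with 2 for the heat shock motif in the risen genes. The endoplasmic reticulum stress element (0.13% of all) and the HNF1 motif (0.0074%), added after the values were seen, were in 0 of these promoters. The called genes come from the bright ones, of which 1652 had a promoter. In those, the shares were 5.39% (AP-1), 10.5% (E-box), 7.2% (STAT), 3.39% (CRE) and 5.33% (heat shock). The sites below are examples of motifs that stood in genes that moved in opposite directions. Not shown are the E-box sites of Bloc1s3 (risen) and Cul1 (fallen). The heat shock sites of Bloc1s3 and Cacna1d (risen) and Srp54 (fallen) are not shown either. Capitals mark the motif.

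Rpo1-2 (risen), STAT motif, chr2:129100971-129100999, + strand: ggaactacatTTCCCAGAAggccacgggg
Atp5o (fallen), STAT motif, chr16:91931636-91931664, - strand: acgcgtacatTTCCCAGAAagccgagcga
Hps4 (risen), CRE, chr5:112343018-112343045, + strand: cgccatgctcTGACGTCAgcagagtgcg
Cdc42 (fallen), CRE, chr4:137357710-137357734, - strand: ccctgcgtgcTGACGTCAggcgcgt
Prkcsh (risen), E-box, chr9:22002756-22002781, + strand: gcgtagcggtCACGTGacgcctgcgt
Adam10 (fallen), E-box, chr9:70678908-70678933, + strand: gccgtcgcgtCACGTGgcgagaaagg

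Counted from the start site, the motifs of Rpo1-2 and Atp5o begin at -15 and -24, those of Hps4 and Cdc42 at -67 and 36, and those of Prkcsh and Adam10 at -222 and -64. A match describes the letters of these windows.

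Immediate early genes had mostly negative differences, none of them past the threshold. Of 27 bright clones on the list, 22 had a negative difference (median -0.17, against 0.01 over all bright clones), 0 were called lower and Rgs16 alone was called higher. The phosphatase Dusp1, which ends MAP kinase signaling, was 9.62 to 11.4 early (median 10.0) and 8.94 to 9.67 late (median 9.27), a difference of -0.87 ± 0.22 (adjusted p = 0.052). The transcription factor Klf4 differed by -0.55 ± 0.15 (adjusted p = 0.0544), Axud1 by -0.62 ± 0.16 (adjusted p = 0.051), and the 3 clones of Errfi1, an inhibitor of the EGF receptor, by -0.71 to -0.78 (adjusted p = 0.068 to 0.163). Their differences with the L number in the fit were -0.72 for Dusp1, -0.73 for Klf4, -0.72 for Axud1 and -1.14 to -1.53 for Errfi1, while the median of the list was -0.09 in that fit.

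Cytokine, chemokine and NF-kB genes showed no common direction. Of 25 bright clones, Birc3 was called lower and 0 were called higher, and 15 were positive and 10 negative. The NF-kB inhibitor Nfkbia was 10.7 to 11.8 early and 10.5 to 11.3 late (difference -0.56 ± 0.17, adjusted p = 0.0658). Both clones of the chemokine-like factor Cklf were 0.97 higher late (adjusted p = 0.068 each). In the glucocorticoid response and clock list, 0 of 19 bright clones were called, with a median of -0.06. Of the acute phase, coagulation and complement list, C3 was the 1 clone of 11 called, and 8 were positive (median 0.20). In the iron, metallothionein and antioxidant list 33 of 44 bright clones were positive (median 0.20) and 0 were called. Members were the glutathione transferase Gsto1 at 0.32 ± 0.09 (adjusted p = 0.0588), epoxide hydrolase Ephx1 at 0.56 ± 0.15 (adjusted p = 0.0538), the antioxidant regulator Nfe2l2 at 0.37 ± 0.12 (adjusted p = 0.0772) and catalase, Cat, at 0.42 ± 0.14 (adjusted p = 0.0755). A second Nfe2l2 clone differed by 0.23 ± 0.145 (adjusted p = 0.344). With the L number in the fit Gsto1 was at 0.55 ± 0.13, Ephx1 at 0.19 ± 0.23 and Cat at -0.09 ± 0.21. The Nfe2l2 clones then stood at 0.21 ± 0.21 and -0.10 ± 0.30.

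B cell and neutrophil markers had mostly negative differences. All 7 bright clones of the B cell and plasma cell list were negative, with a median of -0.40, and 0 were called. The median was -0.38 in serum mice, and -0.08 in OA mice with the L number in the fit. The immunoglobulin kappa clone KACMOUSE was 10.4 to 12.7 early (median 11.5) and 10.1 to 10.7 late (median 10.3), -1.07 ± 0.28 (adjusted p = 0.0544), and with the L number in the fit the value was -0.08 ± 0.52. Of 10 bright neutrophil clones 8 were negative (median -0.26) and 0 were called. The median was -0.05 with the L number in the fit, and 0.04 in serum mice. The calgranulin S100a8 was 10.8 to 14.3 early (median 11.9) and 9.64 to 11.3 late (median 10.5), a difference of -1.51 ± 0.42 (adjusted p = 0.0588) that stood at -1.61 ± 0.65 with the L number. S100a9 differed by -0.80 ± 0.34 (adjusted p = 0.156). Lcn2, lipocalin of neutrophil granules and of injured epithelium, differed by 0.77 ± 0.46 in the other direction (adjusted p = 0.311), with an early range of 6.37 to 10.3. In the macrophage and monocyte list 9 of 12 clones were positive (median 0.15) and Fcer1g was the 1 called lower. Of 6 T and NK cell clones Cd6 was the 1 called, and Lef1 was 1.15 ± 0.32 higher late (adjusted p = 0.0588).

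Structural cells of the lung differed little as lists. Of 14 alveolar type II clones 1 fell (Slc34a2) and 9 were positive, with a median of 0.07. Of the other surfactant genes that the paper considered, Napsa differed by 0.65 ± 0.17 without being called (limma, adjusted p = 0.0544), and Sftpd by 0.08. None of 13 alveolar type I and airway clones (median 0.04) and none of 19 endothelial clones (median 0.10) was called. Of 36 mesenchyme and matrix clones 2 rose, both of P4hb, and 1 fell, Lamb1-1 (median -0.06). Hemoglobin and red cell clones had a median of -0.02 over 17 with 0 called. Clones of Hba-a1 reached 14.4, the top of the normalized scale, where a rise could not be seen. The 4 heart and muscle clones had a median of -0.08 with 0 called.

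Fatty acid oxidation, uptake and storage, the pathway that would use the injected lipid, had 15 of 24 clones positive (median 0.14) and 0 called, and the dehydrogenase Acadl of that list differed by -0.55 ± 0.15 in one clone (adjusted p = 0.0544). Sterol and fatty acid synthesis had 8 of 12 positive (median 0.13) with 0 called. The proteasome list had 22 of 32 positive (median 0.09) and 0 called, the cell cycle list 15 of 28 (median 0.01) and 0 called, and the MHC and interferon list 18 of 37 (median -0.0068) and 0 called. Ube2c, a ubiquitin conjugase of mitosis, was 9.17 to 11.3 early and 11.3 to 11.6 late, with every late mouse above every early mouse, yet missed the threshold (1.00 ± 0.27, adjusted p = 0.0544). Among cytosolic ribosomal proteins 1 of 95 clones fell and 60 were negative (median -0.09). Of 71 respiratory chain clones 1 rose, 1 fell and 42 were positive (median 0.03).

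**Figure D4:**
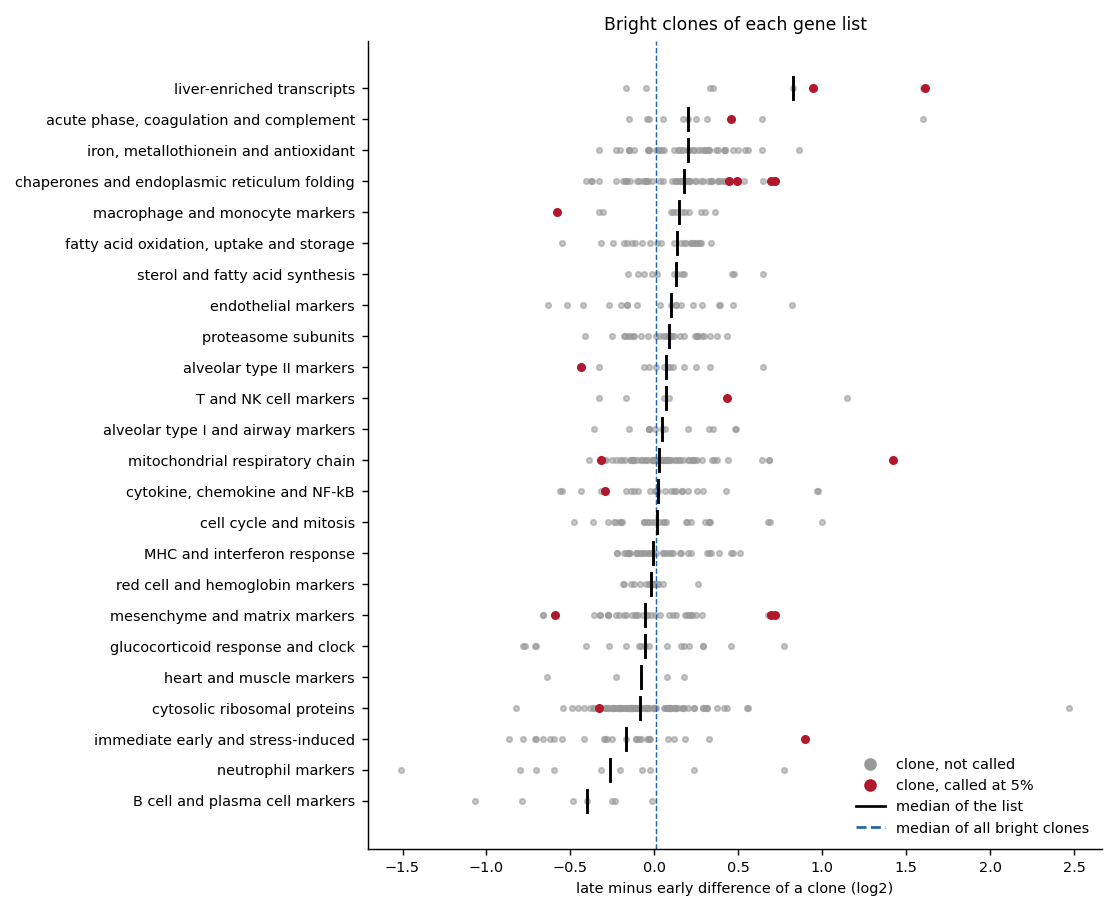
Late minus early difference (log2) of every bright clone on each gene list, with called clones in red, the median of a list as a bar and the median of all bright clones as a dashed line. The B cell list has the lowest median, at -0.40, and the liver-enriched list, written after the values were seen, the highest, at 0.83.

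To separate stage from L number, 11 OA mice at 3 and 4 hours, which carry all 3 L numbers, were added and the L number was fitted beside the stage. No clone of 2555 (0%) was then called by limma, and 144 had an unadjusted p under 0.05. The difference of Hps4 was 0.95 ± 0.31 in that fit and that of Cacna1d 1.03 ± 0.34, about as large as without the L number, and Rpo1-2 stood at 1.18 ± 0.50. Among the clones high at 24 hours, Cyb5r3 dropped to 0.25 ± 0.62 and Gnmt to 0.44 ± 0.33. Of the fallen genes Slc34a2 was at -0.44 ± 0.19, Rps3a at -0.50 ± 0.15, Cul1 at -0.58 ± 0.19 and Akap12 at -0.53 ± 0.22, while Fcer1g was at -0.17 ± 0.24 and Cdc42 at -0.13 ± 0.23. Of the 50 called clones 45 kept their sign, and 18 had an unadjusted p under 0.05. That fit includes the 16 mice that gave the calls, so the kept signs are description and no test. Against the 6 early mice of L number 2 alone 213 clones rose and 174 fell. Against the 4 early mice of L number 3 alone 0 were called in either direction, with 317 at an unadjusted p under 0.05. All 50 called clones kept their sign there, 47 of them at an unadjusted p under 0.05, again in mice that gave the calls.

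**Figure D5:**
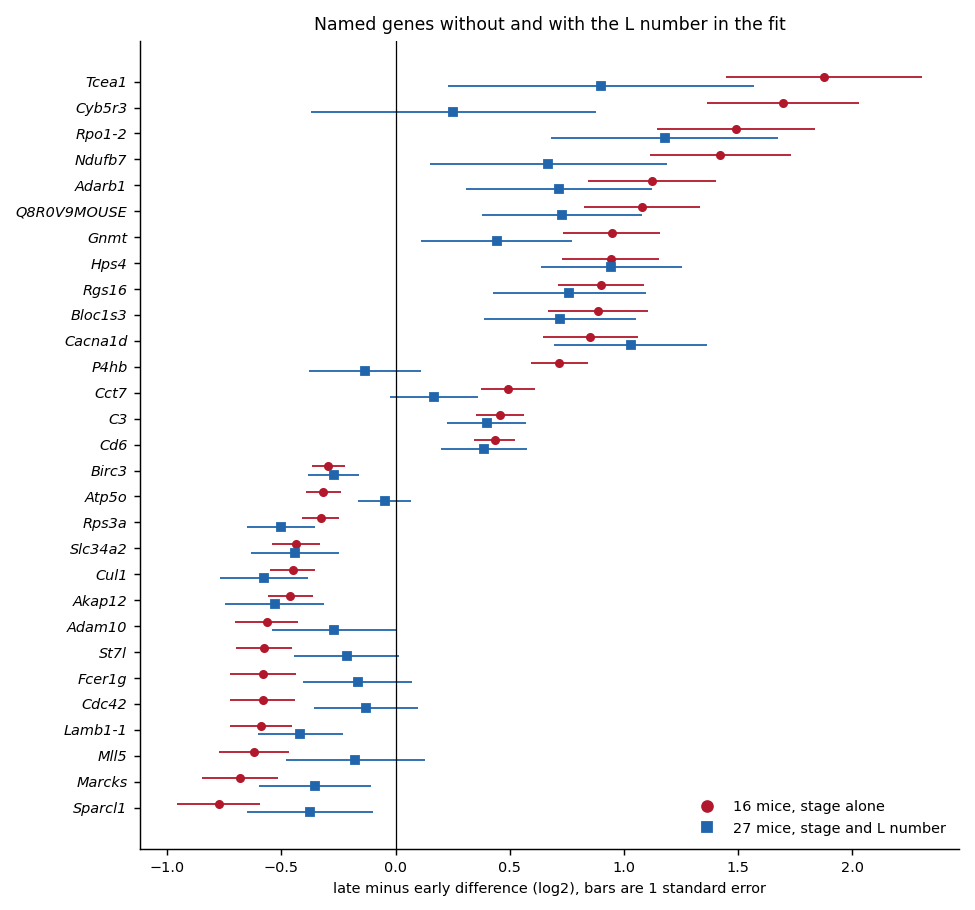
Late minus early difference (log2) of 29 named genes in 16 mice (circles) and with the L number as a term in 27 mice (squares), with bars of 1 standard error. Cyb5r3 moves from 1.70 to 0.25 and P4hb from 0.72 to -0.13, while Cacna1d, C3 and Slc34a2 stay within a standard error.

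Serum mice asked whether the late minus early change belonged to OA. In a fit of both treatments, with 16 OA and 6 serum mice on 36 microarrays, the change differed between OA and serum in 0 of 2555 clones (0%) at 5% by limma, and before adjustment in 210 at 0.05. The lowest adjusted p was 0.16 over the 2555 clones. Rgs16 changed by 1.25 ± 0.35 more in OA than in serum mice, where it changed by -0.29. C3 changed by 0.37 in serum mice, and Birc3 by -0.43, with differences between the treatments of 0.09 and 0.14. Lamb1-1 changed by -0.49 and Akap12 by -0.36 in serum mice. With 3 serum mice in each stage, and 1 of the late ones at 24 hours with the high liver-enriched level given above, the comparison rests on few mice. The labels do not tie the serum microarrays to mice, which were assigned from the paper's numbers of serum mice at each time point.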

How the data were processed

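Lung RNA was hybridized to nylon cDNA microarrays. The authors deposited, for each microarray, linear intensity values of 9984 spots and, for the series, a table of log2 values, quantile-normalized by them, in which each column of an OA microarray has the same median. Whether the deposited intensities include the local background correction of the paper's methods is not given in the sources used here. The log2 columns of 29 microarrays were averaged per mouse, without subtraction of serum values. A clone was bright above the 95th percentile of 512 empty spots in at least 8 of the 16 OA mice (147 clones passed in exactly 8 mice and 133 missed with 7). A clone seen in the 6 late mice alone could therefore not pass. Stages were compared with limma 3.58.1 in R 4.3.3 (lmFit, eBayes), with Benjamini-Hochberg adjustment at 5%. The serum comparison used image intensities of 36 microarrays, at least 1, log2-transformed and quantile-normalized together. The serum columns of the deposited table were used in alternatives alone. Serum microarrays were assigned to mice from the paper's numbers of serum mice. The fits were tested on simulated data. The number of microarrays limits precision.

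The members and lists were chosen with earlier results of these data known. Named were the 12 called genes with the largest difference each way, by the brightest called clone, and up to 5 called members of each of 23 lists. One further list of liver-enriched genes, the motifs of HNF1 and endoplasmic reticulum stress, and members named without being called were chosen after seeing values. Symbols follow the array's spot annotation, and 47 of 48 called symbols were matched to RefSeq (GRCm38.p6), from which promoter sequence was taken. One OA microarray with conflicting time labels was not assigned to a group and not used. Of the genes so named, 2 are not reported here.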

Additional observations from a re-analysis of the deposited data

How the results depend on the processing

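Clones higher and lower late numbered 30 and 20. They numbered 48 and 8 without the brightness filter, 68 and 18 with median-centred image intensities, 38 and 32 with an intensity trend in eBayes, 23 and 11 above the 99th percentile of empty spots, 27 and 8 with time points weighted equally, and 155 and 79 with each microarray as a sample and the mouse as a random effect. They were 0 and 0 with the L number as a random effect, with the intermediate mice and the L number as a term, against early mice of L number 3 alone and against the 1-hour mice alone. Against early mice of L number 2 the counts were 213 and 174, against the 1.5-hour mice 61 and 36, at 18 hours alone 1 and 3, at 24 hours alone 19 and 1, with the microarray of unclear mouse 124 and 92, with serum values subtracted 367 and 312, and with the empty spots as a covariate (chosen after seeing the data) 85 and 62. Leaving out 1 mouse gave 0 to 155 higher and 0 to 135 lower. The causes were not tested. The OA against serum difference, 0 clones, became 1 without the filter, 1 after median-centring, 99 with the deposited serum columns, and 0 to 2 without 1 serum mouse. With serum subtracted, Hps4 stood at -1.08 (adjusted p = 0.000737), Mll5 at 0.52, Akap12 at 0.038 and Birc3 at 0.28 (adjusted p = 0.0443), of opposite sign, as P4hb did at -0.13 with the L number as a term. No paired analysis was possible because replicate numbers only name mice, and no mouse was sampled at both stages. Near the empty spots, signal limits what can be seen.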

Other observations

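Among the clones too dim for the comparison, 32 were called in the fit over all 7625 named clones (limma). The protease inhibitor gene Serpina3g, induced in inflammation, was called higher late (adjusted p = 0.0196) and was above the empty spots in 3 late mice and 1 early mouse. Its early level is that of the background in most mice, so that no size is given. Saa3, a serum amyloid A protein of the acute phase, and Serpina3n were called higher late but lay above the empty spots in 0 of 16 mice, so that no size is given for them. These genes were picked out after their values were seen.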
